A study of Mus musculus with 11 samples.

Results

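The genes described here encode proteins that drive cells into mitosis, build the spindle, attach chromosomes to it and divide the cell. They are 36 genes chosen by name as mitotic kinases, cyclins, kinesins, kinetochore and checkpoint genes, of 24421 genes in the deposited count table, and each of the 36 was matched by its Entrez ID. RNA was measured by RNA-seq in natural killer (NK) cells carrying Ly49H, an activating receptor that recognises a protein of mouse cytomegalovirus (MCMV). The cells came from spleens of C57BL/6 mixed bone marrow chimeras, in which wild-type (WT) cells marked by CD45.1 and LDHA-deficient (KO) cells marked by CD45.2 develop in a shared host. LDHA is a subunit of lactate dehydrogenase. The 11 libraries form 4 groups by title: KO D0 (3 libraries), KO D2 (3), WT D0 (2) and WT D2 (3). MCMV infection is the treatment given for all of them. Every library carries the label day 2, those titled D0 included, so whether the D0 libraries came from infected mice is not known and D0 and D2 serve here as names from the titles. Libraries titled WT carry a genotype label with both genotypes, and their group follows the title. The labels give each sample as an individual mouse. They give no age, and neither the deleted part of Ldha nor a Cre line. The sorted cells bore NK1.1, DX5 and Ly49H and lacked TCRb and CD3e, and their total RNA was amplified with a low-input kit before sequencing.

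A cell enters mitosis when cyclin-dependent kinase 1 (CDK1), bound to cyclin A or B, is activated, and it leaves when the anaphase-promoting complex marks those cyclins for destruction. Between these steps kinetochores, built on centromeres, catch spindle microtubules, and the spindle checkpoint holds back the anaphase-promoting complex until every chromosome is attached. Transcripts of most genes in this machinery peak late in the cell cycle, and many of their promoters carry a short element called the cell cycle genes homology region (CHR), often with CCAAT boxes upstream. Ly49H+ NK cells are known to proliferate strongly after MCMV infection, which makes these transcripts a common readout of their division.

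Promoter sequences of the members are given as a description, and 9 stretches are shown to let these elements be read directly. The part of these elements in the change from D0 to D2 was not tested. RefSeq windows (build GRCm38.p6, 250 bases before to 50 after a start site) were at hand for 31 of the 36 genes; the 5 others are Ccna2, Incenp, Tpx2, Kif20a and Aurkb. Each stretch runs 5′ to 3′ along the gene from 100 bases before to 20 after the start site, and capitals mark CHR matches (TTTGAA or TTCGAA, read on both strands, so also TTCAAA) and CCAAT boxes (CCAAT, or ATTGG on the other strand). Cdc20 and Ccnb2 are shown because they differed between genotypes at D2, and the others because each had the smallest p of its role group for D2 against D0 in WT.
Ccnb2 chr9:70421535-70421654 (- strand): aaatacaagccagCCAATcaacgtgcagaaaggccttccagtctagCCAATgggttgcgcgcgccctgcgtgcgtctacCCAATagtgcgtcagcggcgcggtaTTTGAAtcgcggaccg
Cdk1 chr10:69352893-69353012 (- strand): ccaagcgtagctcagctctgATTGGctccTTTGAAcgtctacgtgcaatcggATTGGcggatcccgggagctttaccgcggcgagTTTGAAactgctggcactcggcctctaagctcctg
Top2a chr11:99024170-99024289 (- strand): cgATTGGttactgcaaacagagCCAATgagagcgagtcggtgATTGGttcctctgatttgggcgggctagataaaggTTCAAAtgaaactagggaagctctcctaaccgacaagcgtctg
Birc5 chr11:117849137-117849256 (+ strand): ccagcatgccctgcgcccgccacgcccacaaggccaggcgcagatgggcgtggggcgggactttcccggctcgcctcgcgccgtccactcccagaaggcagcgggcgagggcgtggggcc
Cdc20 chr4:118437324-118437443 (- strand): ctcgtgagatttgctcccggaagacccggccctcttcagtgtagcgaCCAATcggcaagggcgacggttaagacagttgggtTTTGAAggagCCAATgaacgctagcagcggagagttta
Ube2c chr2:164769829-164769948 (+ strand): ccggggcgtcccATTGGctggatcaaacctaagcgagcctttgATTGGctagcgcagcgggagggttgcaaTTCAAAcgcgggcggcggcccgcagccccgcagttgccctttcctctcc
Cenpe chr3:135212463-135212582 (+ strand): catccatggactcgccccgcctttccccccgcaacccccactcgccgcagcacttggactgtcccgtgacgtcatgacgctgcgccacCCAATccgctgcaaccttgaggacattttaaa
Kif23 chr9:61946780-61946899 (- strand): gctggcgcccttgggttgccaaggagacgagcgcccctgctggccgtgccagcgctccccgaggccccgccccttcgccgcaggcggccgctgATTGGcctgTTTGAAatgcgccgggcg
Prc1 chr7:80294351-80294470 (+ strand): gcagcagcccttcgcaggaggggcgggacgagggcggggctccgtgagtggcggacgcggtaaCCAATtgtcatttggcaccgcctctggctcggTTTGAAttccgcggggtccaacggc

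In Ccnb2, CCAAT boxes stand at 3 places upstream of a CHR that starts 5 bases past the start site, and in Cdk1 a CCAAT box lies upstream of each of the 2 CHR matches shown. Kif23 and Prc1 hold a CCAAT box followed closely by a CHR, while Cenpe has a CCAAT box alone and the window of Birc5 has neither element. Over all windows, 25 of 31 members (80.6%) held a CHR match, against 17.4% of the 10880 tested genes with a window and 21.7% of all 27025 genes with one. A CCAAT box was present in 23 of 31 (74.2%), against 43% of tested genes and 41.1% of all genes. Both stood together in 21 of 31 (67.7%), against 7.35% of tested genes, 8.61% of all genes and 9.35% of the 3058 genes with a window that were higher at D2 in WT. A CHR match within 50 bases of the start site was found in 22 of 31 members (71%) and in 4.62% of tested genes. Neither was found in the windows of Birc5, Mad2l1, Nuf2 and Nusap1. These are matches of letters in a fixed window. In 18 of the members' 32 windows the start site is the 5′ boundary that RefSeq gives for the gene, and the other windows use another start site.

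**Figure D1:**
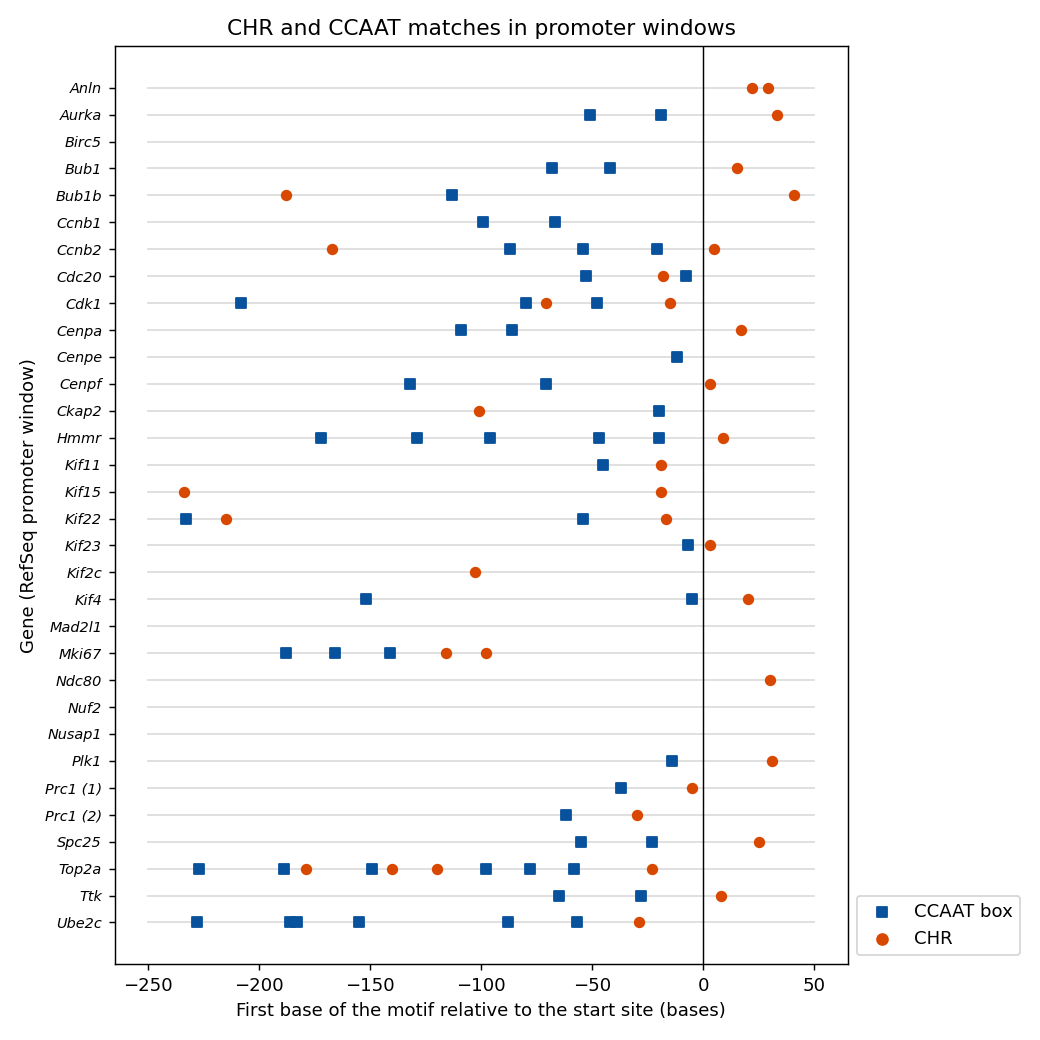
Position of CHR and CCAAT matches in the RefSeq promoter windows of the members. The x axis gives the first base of each match relative to the start site in bases, and each row is a gene's window. CHR matches gather near the start site, where 22 of 31 genes hold one within 50 bases, and CCAAT boxes lie mostly upstream of it.

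Total counts per library ran from 19452460 to 27992092, and all 36 members passed the filter on low counts, as did 13711 genes in all. The lowest count of any member in any library was 109, for Ckap2. Ldha checked the labels: the 6 KO libraries held 91.1 to 115 CPM (counts relative to the library total after TMM scaling), and the WT libraries 563 and 656 CPM at D0 and 2753 to 3101 CPM at D2. Genes of the sort's markers were present in every library, with Klra8 (Ly49H) at 399 to 1286 CPM, Klrb1c (NK1.1) at 391 to 1681 CPM and Itga2 (DX5) at 112 to 239 CPM. Ncr1, another NK cell gene, was at 640 to 914 CPM in the KO libraries and at 1208 to 1595 CPM in the WT libraries, with no overlap, and its part in the results was not tested. The 8 T cell genes summed to between 14.4 and 31.8 CPM, with Cd3e at most 0.995 CPM, and the 6 B cell genes to between 4.21 and 9.92 CPM. No marker of the lists examined was at 0 in every library. Macrophage genes summed to 26.1 to 70.3 CPM at D0 and 17 to 27.9 CPM at D2, and erythroid genes (7 of 8 in the table) to 105 to 930 CPM at D0 and 39.1 to 320 CPM at D2. Neutrophil genes summed to 1.65 to 20.5 CPM at D0 and 1.36 to 4.48 CPM at D2, plasma cell genes to 5.68 to 48.9 and 20 to 38.3 CPM. The dendritic cell list summed to 27.8 to 33.1 CPM at D0 and 478 to 680 CPM at D2, nearly all of it Bst2, which is also an interferon-induced gene. With the genotypes pooled, only the sum of the dendritic cell list separated the title days. Within each genotype macrophage genes did so too, at 26.1 to 51.7 against 17 to 23.4 CPM in KO. In WT they were at 51.3 to 70.3 CPM at D0 and 19.2 to 27.9 CPM at D2. Plasma cell genes were higher at D2 in KO alone (5.68 to 7.89 against 20 to 31.2 CPM). In WT alone neutrophil genes (12.9 to 13.2 against 1.36 to 4.48 CPM) and B cell genes (6.8 to 9.92 against 4.21 to 5.63 CPM) were lower at D2. The part of these sums in the D2 against D0 results was not tested.

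All 36 mitosis and spindle genes were called higher in WT cells at D2 than at D0, and 35 of 36 were in KO cells, the exception being Cdc20 (adjusted p = 0.055). Over all tested genes 27.5% were called higher in WT and 27% in KO (edgeR quasi-likelihood test, Benjamini-Hochberg adjusted p under 0.05 over all tested genes). The median log2 fold change of the members was 2.82 in WT, or 7.06-fold, and 2.33 in KO, or 5.02-fold, beside medians over all tested genes of -0.07 and -0.20. In both genotypes every D2 library lay above every D0 library for all 36 members, which held for 33.6% of tested genes in WT and 29.2% in KO. With another scaling (DESeq2's size factors, RLE) the all-gene median in KO was -0.09, a shift of 0.11, and all 36 members were called there, beside 29.4% of tested genes. Bulk RNA cannot tell a larger share of cells in mitosis from more RNA per cell.

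**Figure D2:**
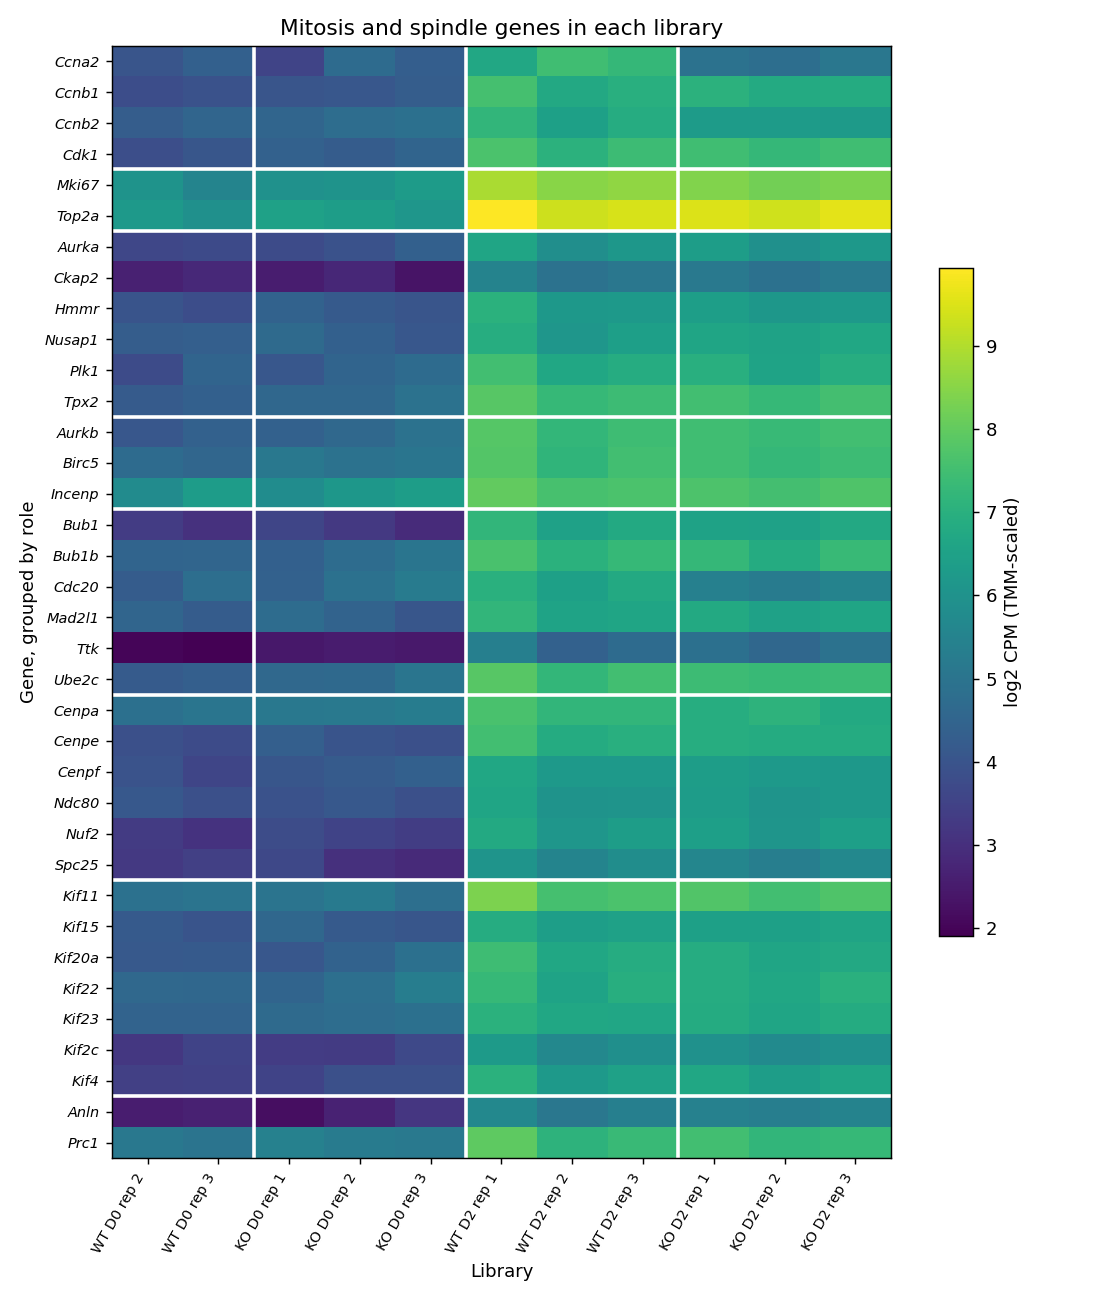
Level of each member in each of the 11 libraries, as log2 CPM (colour scale), with genes in rows grouped by role and libraries in columns grouped by title. All 36 rows are higher in the 6 D2 libraries than in the 5 D0 libraries, and Ccna2 and Cdc20 are the rows in which KO D2 stays close to D0.

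Summed over the 36 genes, transcripts made up 0.0753% and 0.0775% of the TMM-scaled library size in WT D0. In KO D0 they made up 0.0858% to 0.0958% of it, and these values are not shares of the raw library total. At D2 the sum was 0.445% to 0.666% in WT and 0.424% to 0.484% in KO. The mean summed level was 763.8 ± 15.6 CPM in WT D0 (SD, n = 2), 904.7 ± 50.1 in KO D0 (n = 3), 5363 ± 1153 in WT D2 (n = 3) and 4626 ± 333 in KO D2 (n = 3). The sum was thus 7.02 times as large at D2 as at D0 in WT and 5.11 times in KO. At D0 both WT libraries lay under all 3 KO libraries, and at D2 the genotypes overlapped. WT D2 replicate 1 held the highest sum, 6657 CPM, and was the highest of the 3 WT D2 libraries for 35 of 36 members; for Ccna2 it was the lowest. Within KO D2, replicate 2 was the lowest for 31 of 36.

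Per kilobase of the longest protein-coding transcript, Top2a had the highest level of the members at D2 (147 CPM per kb in WT, 138 in KO) and Cenpf the lowest (7.66 and 6.97). Cenpa, Aurkb and Ube2c followed Top2a in WT D2 at 111, 93.8 and 84.9 CPM per kb. Most members held nearly the same place in the order of levels in both genotypes, but Cdc20 ranked 8 in WT D2 and 25 in KO D2, and Ccna2 ranked 14 and 33. These orders are descriptions of group means, and the length used may not be that of the transcript the cells make.

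Among the cyclins and their kinase, Cdk1, the kinase that drives mitotic entry, stood at 14.4 and 16.7 CPM in WT D0, at 204, 133 and 169 CPM in WT D2, at 21, 19 and 22.7 CPM in KO D0 and at 177, 152 and 176 CPM in KO D2. The D2 libraries of both genotypes lay far above all D0 libraries and overlapped with each other. Its log2 fold change of D2 against D0 was 3.43 in WT (SE 0.20, adjusted p = 4.7e-08) and 3.01 in KO (SE 0.16, adjusted p = 2.2e-08). Ccnb1, which encodes cyclin B1, the main partner of CDK1 in mitosis, rose by 3.25 (SE 0.23) in WT and by 2.79 (SE 0.19) in KO on the log2 scale.

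Ccna2 encodes cyclin A2, which acts in S phase and at mitotic entry, and it differed most between the genotypes (Entrez 12428, chr3:36564865-36573038 in mm10). In WT it stood at 16.2 and 20.7 CPM at D0 and at 106, 176 and 153 CPM at D2. In KO it stood at 11.8, 26 and 20 CPM at D0 and at 30.6, 28 and 33.7 CPM at D2. The KO D2 libraries thus lay just above the D0 range and under all WT D2 libraries. D2 against D0 was 2.98 in WT (SE 0.31, adjusted p = 4.9e-06), a 7.88-fold rise, and 0.68 in KO (SE 0.25, adjusted p = 0.034), a 1.60-fold rise. The KO call did not hold without KO D0 replicate 1 (log2 0.36, adjusted p = 0.16) or in most fits that left out another library. It also did not hold without a filter or with a mean of at least 5 CPM. With an offset for GC content, chosen after the data were examined, the KO value was 1.44.

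Ccnb2 encodes cyclin B2 (Entrez 12442, chr9:70407689-70421554). It stood at 19.3 and 23.2 CPM in WT D0 and at 147, 88.4 and 117 CPM in WT D2, and at 23.2, 27.6 and 29.4 CPM in KO D0 and 80.1, 79.9 and 78.3 CPM in KO D2. The KO D2 libraries lay close together, just under the lowest WT D2 library. It rose by 2.46 (SE 0.21) in WT and by 1.57 (SE 0.17) in KO on the log2 scale, or 5.52-fold and 2.97-fold.

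Top2a and Mki67 act on the chromosomes themselves. Top2a, which encodes the topoisomerase that untangles sister DNA, had 75.2 and 61.7 CPM in WT D0 and 975, 638 and 697 CPM in WT D2, against 90.3, 82.1 and 70 CPM in KO D0 and 734, 655 and 775 CPM in KO D2. The genotypes overlapped on both days, and the rise was 3.49 in WT (SE 0.21, adjusted p = 6.4e-08) and 3.16 in KO (SE 0.18, adjusted p = 2.6e-08). Mki67 encodes Ki-67, the proliferation antigen that coats mitotic chromosomes. It had 64.9 and 46.5 CPM in WT D0 and 484, 366 and 385 CPM in WT D2, and 62.3, 65.1 and 79.6 CPM in KO D0 and 342, 299 and 329 CPM in KO D2. Every KO D2 library was under every WT D2 library, while at D0 the genotypes overlapped. Its rise was 2.89 (SE 0.19) in WT and 2.23 (SE 0.16) in KO.

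The Polo and Aurora A kinases with spindle assembly factors, 6 genes, rose in all cases in both genotypes, with medians of 2.61 in WT and 2.29 in KO. Tpx2, whose product activates Aurora A on spindle microtubules, went from 18.6 and 20.8 CPM to 229, 155 and 170 CPM in WT and from 24.2, 24.3 and 30.4 CPM to 183, 156 and 185 CPM in KO. Its rises were 3.23 (SE 0.20) and 2.73 (SE 0.17), and the genotypes overlapped at D2. Plk1, which encodes Polo-like kinase 1, a regulator of centrosomes, kinetochores and cytokinesis, spread more widely. It had 13.5 and 22.5 CPM in WT D0 and 181, 103 and 118 CPM in WT D2, and 17, 22.5 and 26.4 CPM in KO D0 and 124, 95.3 and 121 CPM in KO D2. Aurka (Aurora A kinase), Hmmr, Nusap1 and Ckap2, which encode microtubule-associated proteins of the spindle, rose by 2.21 to 2.64 in WT and by 2.04 to 2.50 in KO.

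The chromosomal passenger complex, which corrects faulty attachments and guides cytokinesis, is represented by its kinase Aurkb, its scaffold Incenp and Birc5, which encodes survivin. Birc5 went from 26 and 23.6 CPM to 218, 143 and 181 CPM in WT and from 34.8, 30.4 and 32.4 CPM to 176, 152 and 170 CPM in KO. At D0 all KO libraries were above both WT libraries, and at D2 the genotypes overlapped; the rises were 2.86 (SE 0.18) and 2.35 (SE 0.15). Incenp changed least of the 36 in WT. It had 54.7 and 81.8 CPM in WT D0 and 256, 194 and 202 CPM in WT D2, and 55.8, 71.4 and 83.1 CPM in KO D0 and 208, 187 and 209 CPM in KO D2, so the genotypes overlapped on both days. The rise of Incenp was 1.67 (SE 0.21) in WT and 1.52 (SE 0.18) in KO, that of Aurkb 3.26 (SE 0.22) and 2.76 (SE 0.18).

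Among the 6 genes of the spindle checkpoint and the partners of the anaphase-promoting complex, 6 rose in WT and 5 in KO. Ube2c, which encodes a ubiquitin-conjugating enzyme of that complex, went from 18.7 and 20.2 CPM to 228, 149 and 181 CPM in WT and from 24.8, 25.2 and 32.5 CPM to 170, 158 and 165 CPM in KO. The genotypes did not overlap at D0, where KO was higher, and overlapped at D2, with rises of 3.26 (SE 0.20) and 2.58 (SE 0.16). Bub1, a checkpoint kinase gene, had the largest rise of the 36 in both genotypes, 3.65 (SE 0.26) in WT and 3.32 (SE 0.21) in KO, or 12.6-fold and 10-fold. Bub1b, Mad2l1 and Ttk, which encode the checkpoint proteins BUBR1, MAD2 and MPS1, rose by 2.43 to 2.93 in WT and by 2.18 to 2.42 in KO.

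Cdc20 encodes the activator that switches on the anaphase-promoting complex once the checkpoint is satisfied, and it is also the checkpoint's target (Entrez 107995, chr4:118432901-118437343). It stood at 19 and 27.8 CPM in WT D0 and at 127, 89 and 109 CPM in WT D2. In KO it stood at 21.2, 29.8 and 37.6 CPM at D0 and at 42.4, 38.1 and 44.8 CPM at D2. The KO D2 libraries were just above the highest D0 library and under all WT D2 libraries. D2 against D0 was 2.21 in WT (SE 0.25, adjusted p = 1e-05), a 4.64-fold rise, and 0.50 in KO (SE 0.21, adjusted p = 0.055), which did not pass the threshold. In KO it passed with RLE scaling (0.61, adjusted p = 0.028), DESeq2 (0.61, adjusted p = 0.021), only the compared groups (0.57, adjusted p = 0.022), the replicate block (0.51, adjusted p = 0.024), the GC offset (0.47, adjusted p = 0.04) and both of these together (0.48, adjusted p = 0.019). It did not pass without a filter (0.46, adjusted p = 0.088) or with a mean of at least 5 CPM (0.37, adjusted p = 0.12), and in 9 of 11 fits that left out a library.

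All 6 centromere and kinetochore genes rose in both genotypes. Cenpe, which encodes a kinesin that moves chromosomes to the spindle equator, went from 14.7 and 13.3 CPM to 181, 116 and 124 CPM in WT and from 20.1, 16.1 and 14.7 CPM to 120, 116 and 115 CPM in KO. At D2 the genotypes overlapped and at D0 the lowest KO library and the highest WT library were nearly equal; the rises were 3.32 (SE 0.22) and 2.78 (SE 0.18). Cenpa, which encodes the histone variant that marks centromeres, had 29.3 and 32.8 CPM in WT D0 and 198, 145 and 147 CPM in WT D2. In KO it had 34.6, 35.3 and 38.7 CPM at D0 and 120, 138 and 111 CPM at D2, so KO was above WT at D0 and below it at D2 without overlap. Spc25, a subunit of the microtubule-binding NDC80 complex, had 9.44 and 10.8 CPM in WT D0 and 66.8, 45.8 and 57.7 CPM in WT D2, against 12.5, 8.2 and 7.3 CPM in KO D0 and 48.4, 40.9 and 50.2 CPM in KO D2. It rose by 2.49 (SE 0.25) and 2.31 (SE 0.21), the other NDC80 complex genes Ndc80 and Nuf2 by 2.28 and 3.25 in WT and by 2.22 and 2.76 in KO, and Cenpf, which encodes a large kinetochore protein, by 2.62 and 2.07.

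The 7 kinesin motor genes rose in both genotypes, by 2.35 to 3.20 in WT and by 1.93 to 2.79 in KO. Kif23, which encodes a subunit of the centralspindlin complex of the midzone, went from 22 and 21.9 CPM to 132, 102 and 101 CPM in WT and from 25.7, 27.6 and 29.4 CPM to 116, 99.3 and 114 CPM in KO, with rises of 2.35 (SE 0.16) and 1.99 (SE 0.13). Kif22, a chromosome-bound motor gene, had 24.4 and 24.1 CPM in WT D0 and 157, 94.5 and 122 CPM in WT D2, and 22.4, 28.6 and 39.5 CPM in KO D0 and 117, 102 and 127 CPM in KO D2. Of the pair, only Kif23 separated the genotypes at D0, and neither did at D2. Kif11, the motor that pushes spindle poles apart, rose by 2.95 in WT and 2.64 in KO, and Kif4, a chromosome-arm and midzone motor, by 3.20 and 2.79. Kif2c, which encodes a microtubule-depolymerising kinesin, rose by 2.59 and 2.43, Kif15, which encodes a spindle kinesin, by 2.53 and 2.21, and Kif20a, which encodes a midzone kinesin, by 2.87 and 2.27.

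Prc1, which encodes a crosslinker of midzone microtubules, had 34.5 and 31.8 CPM in WT D0 and 244, 136 and 164 CPM in WT D2, and 43.6, 37.6 and 35.8 CPM in KO D0 and 182, 146 and 155 CPM in KO D2. Anln, which encodes the contractile ring protein anillin, was among the members with the lowest CPM, with 5.82 and 6.2 CPM in WT D0 and 50.8, 34.1 and 41.3 CPM in WT D2, against 4.64, 6.46 and 9.15 CPM in KO D0 and 43.7, 40.4 and 45.6 CPM in KO D2. Ttk had the lowest mean CPM of the 36, at 4.04 and 3.76 CPM in WT D0 and 41.8, 21 and 26.4 CPM in WT D2, and at 5.36, 5.79 and 5.45 CPM in KO D0 and 29.5, 24.1 and 30.6 CPM in KO D2. For these genes the genotypes overlapped at D2, and at D0 Prc1 and Ttk were higher in KO without overlap. Prc1 rose by 2.45 (SE 0.23) in WT and 2.04 (SE 0.19) in KO, Anln by 2.81 (SE 0.27) and 2.68 (SE 0.23), and Ttk by 2.93 (SE 0.28) and 2.34 (SE 0.23).

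**Figure D3:**
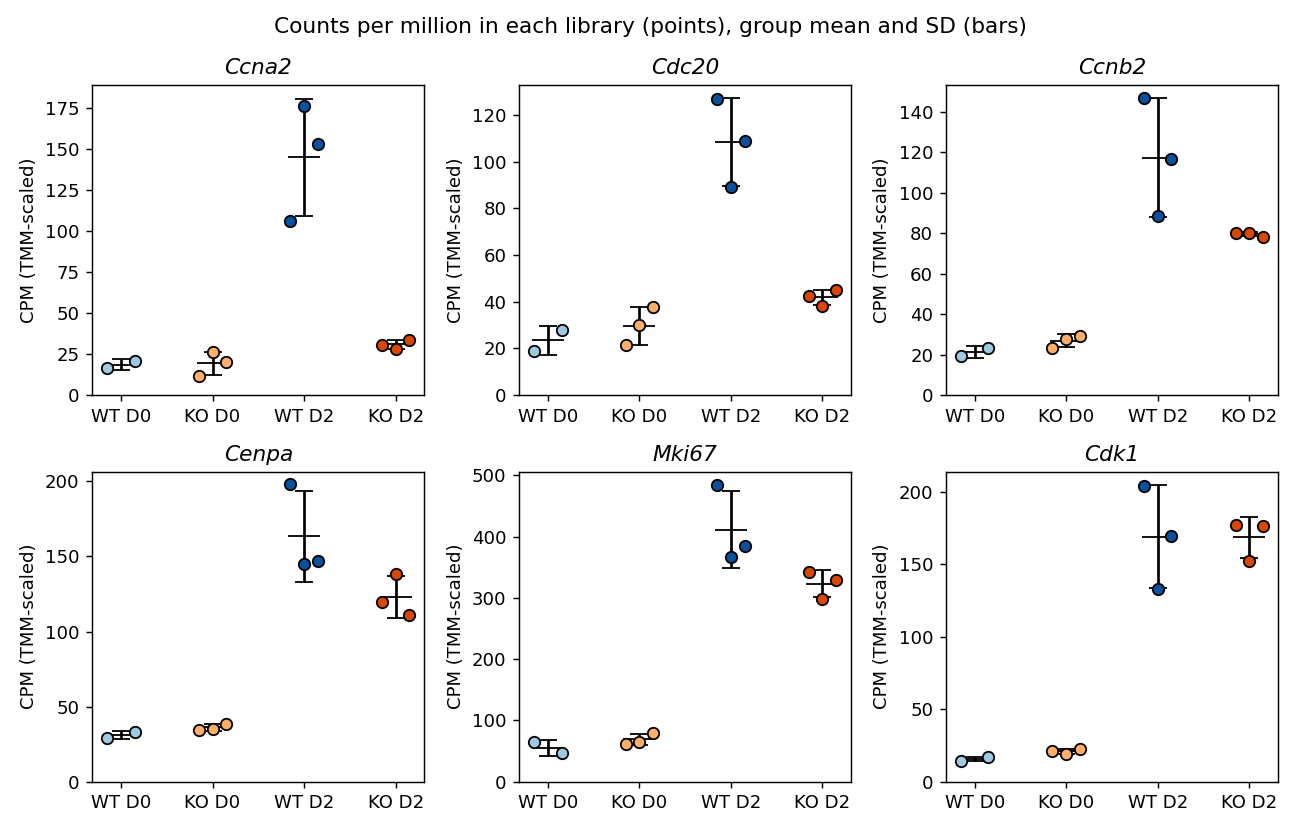
CPM in each library (points) with the group mean and SD (bars) for single members, with the 4 groups on the x axis. Ccna2 and Cdc20 in KO D2 stand at 28 to 33.7 and 38.1 to 44.8 CPM, under all WT D2 libraries, whereas Cdk1 in KO D2 lies within the WT D2 range.

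The comparison of KO with WT at D2 asks whether LDHA-deficient cells differ from WT cells in the mitotic genes. Of the 36 genes 3 were lower in KO and none was higher, where 14.5% of all tested genes were called lower and 1.61% higher. The members' share called lower, 3 of 36, is thus under the background. Ccna2 was lower by a log2 fold change of -2.24 (SE 0.26, adjusted p = 1.5e-04), Cdc20 by -1.38 (SE 0.21, adjusted p = 7.4e-04) and Ccnb2 by -0.56 (SE 0.17, adjusted p = 0.037). In Ccna2 and Cdc20 the call held in each alternative fit. That of Ccnb2 did not hold with RLE scaling (-0.47, adjusted p = 0.095) or DESeq2 (-0.48, adjusted p = 0.072). It also did not hold with the GC offset, alone (-0.11, adjusted p = 0.76) or together with the replicate block. Leaving out any 1 of the KO D2 libraries removed the call (adjusted p = 0.094, 0.095 and 0.099). So did leaving out WT D2 replicate 1 (-0.39, adjusted p = 0.13) or WT D2 replicate 3 (adjusted p = 0.088).

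No other member passed the threshold at D2. Counted without adjustment, 5 members had p under 0.05, all lower in KO, as did 19.5% of tested genes: these 3, Cenpa (-0.41, SE 0.14, adjusted p = 0.069) and Mki67 (-0.35, SE 0.15, adjusted p = 0.17). The same 5 were the members whose KO D2 libraries all lay under all WT D2 libraries, which held for 21.3% of tested genes. With the replicate number as a block, since same-numbered KO and WT libraries deviated together at D2, Cenpa was also called (-0.40, SE 0.11, adjusted p = 0.027), beside a background of 18.6% lower. The sources used here do not say whether same-numbered libraries share a host. With the block and the GC offset together 6 members were called lower, beside 12.5% of tested genes. They were Ccna2, Cdc20, Bub1b, Cenpe, Kif20a and Mad2l1, while Ccnb2 and Cenpa were not called in that fit. Cdk1 differed by 0.00 (SE 0.15), Ccnb1 by -0.22 (SE 0.18), Top2a by -0.10 (SE 0.16) and Plk1 by -0.24 (SE 0.24).

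Across the 36, 34 log2 values were below 0 and the median was -0.13, against 0.01 for all tested genes. The number below 0 depended on the scaling: with RLE 25 members were below 0. Their median was then -0.04 against 0.10 for all genes, so the small offset from all genes remained. It depended on a library, since without WT D2 replicate 1 the median was 0.03 against 0.02. By role, the medians were -0.39 for the cyclins and their kinase, -0.22 for the chromosome genes, -0.20 for kinetochore genes, -0.18 for the checkpoint genes, -0.11 for the passenger complex, -0.10 for the Polo and Aurora A group and for the kinesins, and -0.07 for the midzone genes. The 4 cyclin and kinase genes included 2 of the 3 called members.

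Shares within the members' own total do not depend on library scaling. They use the same counts as the calls and are given as a description. Ccna2 made up 1.38% to 2.89% of the summed level in KO D0 and 2.15% and 2.67% in WT D0. At D2 it made up 0.632% to 0.704% in KO and 1.59% to 3.95% in WT, with no overlap. Cdc20 made up 2.47% to 3.92% in KO D0, 2.52% and 3.59% in WT D0, 0.874% to 0.936% in KO D2 and 1.91% to 2.2% in WT D2. Its share was therefore lower at D2 than at D0 in both genotypes, and lowest in KO D2. Ccnb2 made up 2.7% to 3.07% in KO D0 and 2.56% and 2.99% in WT D0. At D2 it made up 1.63% to 1.88% in KO and 1.99% to 2.34% in WT. Cdk1 went the other way, from 1.91% and 2.16% in WT D0 to 2.99% to 3.39% in WT D2. In KO it went from 2.11% to 2.44% at D0 to 3.57% to 3.67% at D2. Cdk1, which was not called, thus also separated the genotypes by share at D2, with KO higher.

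GC content of the transcript moved with the genotype difference at D2 across all genes, and the members are given beside it. The measure is the highest GC of any 100-base window of the longest protein-coding transcript. Among tested genes under 65% by this measure 1.51% were called lower in KO, against 5.01% of those at 70% to 74%, 32.8% at 75% to 79%, 43.6% at 80% to 84% and 14.9% at 85% or more, where no member lies. The members ran from 57% to 81% with a median of 68.5%, with 9 under 65%, 10 at 65% to 69%, 11 at 70% to 74%, 4 at 75% to 79% and 2 at 80% to 84%. Ccna2 had the highest value, 81%, followed by Mki67 at 80%, Ccnb2 and Cenpa at 77%, Kif11 and Spc25 at 75% and Cdc20 at 74%. The 5 members that separated the genotypes without overlap are thus among the 7 with the highest GC.

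With the offset for GC content, the log2 fold change of Ccna2 at D2 was -1.50 (SE 0.18, adjusted p = 4.4e-04) and that of Cdc20 -1.28 (SE 0.19, adjusted p = 0.001), so both were still called, while 8.5% of tested genes were called lower. Ccnb2 stood at -0.11 (adjusted p = 0.76) and Cenpa at 0.04 (adjusted p = 0.91), and neither was called. Mki67 changed sign, from -0.35 to 0.35 (SE 0.20, adjusted p = 0.31), and was at 0.39 (adjusted p = 0.094) with the block and offset together. Across the 36 members the log2 difference and GC had r = -0.506 and rho = -0.391, and across 12819 tested genes r = -0.357 and rho = -0.441. These correlations are across genes measured in the same libraries and are descriptions. The part of GC content in the genotype difference was not tested beyond this offset.

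**Figure D4:**
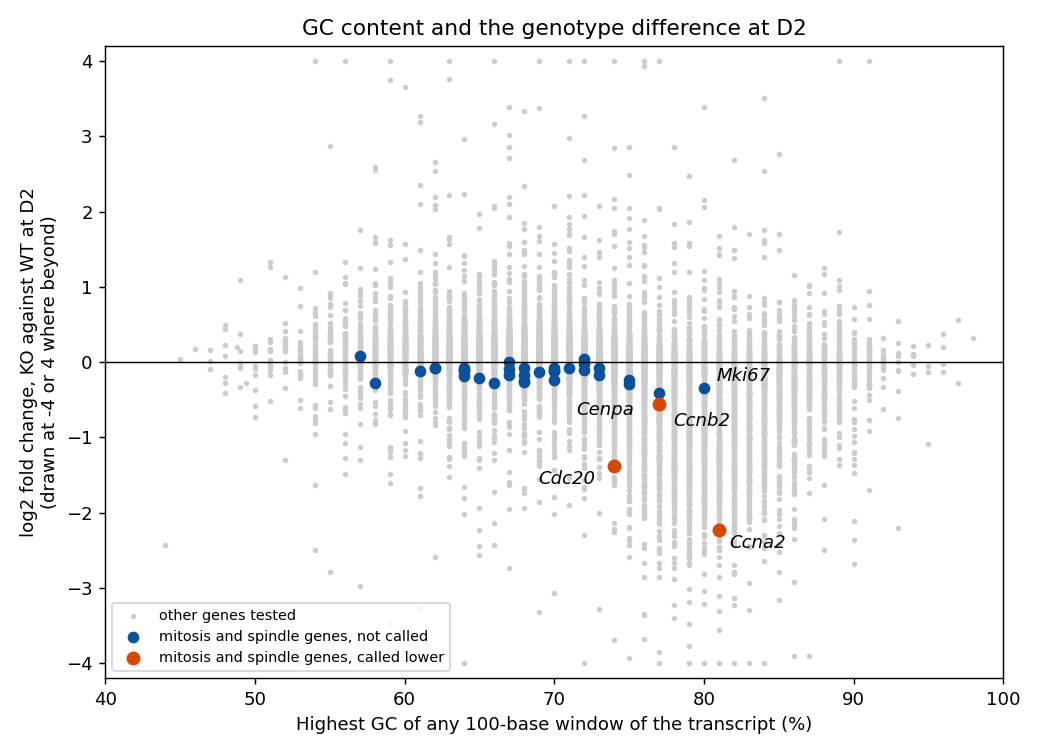
Log2 fold change of KO against WT at D2 (y axis) by the highest GC of any 100-base window of the transcript in percent (x axis), for the 36 members and the other tested genes (grey). Of the called members Ccna2 lies at 81%, Ccnb2 at 77% and Cdc20 at 74%, and the members under 74% stay close to 0.

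Overlapping genes were checked because the sources do not say whether counting used strand. Ccna2 overlaps Exosc9 on the opposite strand by 863 bases, and Exosc9 differed between genotypes at D2 by 0.04 (SE 0.13, adjusted p = 0.91). Cdc20 overlaps Elovl1 by 53 bases on the opposite strand, and Elovl1 differed by 0.15 (SE 0.16, adjusted p = 0.64). Reads from the shared bases cannot be told apart, and neither neighbour was called.

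Between KO and WT at D0, none of the 36 was called, where 0.153% of all tested genes were called in either direction; DESeq2 (0.196% of genes called) and the replicate block (1.47%) also called none. Without adjustment 6 members had p under 0.05, all higher in KO, as did 2.98% of tested genes: Birc5, Cdk1, Cenpf, Kif23, Tpx2 and Ube2c. The largest of these was Ube2c at 0.50 (SE 0.18), and Cdk1 and Tpx2 stood at 0.42 (SE 0.18 each). In 15 members all 3 KO libraries lay above both WT libraries, which held for 10.6% of tested genes, and in 33 the log2 value was above 0, with a median of 0.28 against 0.02 for all tested genes. Ckap2, Spc25 and Ndc80 were the 3 below 0, at -0.17, -0.11 and -0.02. Differences of this size did not pass the threshold.

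The interaction of genotype and title day, that is, how far the change from D0 to D2 differs between genotypes, was called for 2 members, both lower in KO, where 5.72% of tested genes were called lower. The log2 change in KO minus that in WT was -2.30 for Ccna2 (SE 0.39, adjusted p = 0.0098) and -1.71 for Cdc20 (SE 0.32, adjusted p = 0.014). Both calls depended on WT D0 replicate 2, without which 1 library is left in that group. The members' median difference was -0.40 in that fit, against -0.08 for all tested genes. It was -0.43 against -0.07 without WT D0 replicate 3, and -0.44 against -0.04 with all libraries. Cdc20 was not called (adjusted p = 0.055 each) without KO D2 replicate 1, KO D2 replicate 2 or WT D2 replicate 3, which leaves 1 member. Ccnb2 had -0.89 (SE 0.26, adjusted p = 0.061) and Cenpa -0.63 (SE 0.21, adjusted p = 0.11).

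Of the 36 differences 35 were below 0, with a median of -0.44 against -0.04 for all tested genes; the median of KO against WT was above 0 at D0 and below 0 at D2. The exception was Ckap2 at 0.05 (SE 0.27). With the replicate block 12 members were called lower, beside 14.6% of tested genes: Ccna2, Cdc20, Ccnb2, Ube2c, Aurkb, Kif20a, Cenpa, Bub1b, Mki67, Tpx2, Cenpf and Aurka. Apart from Ccna2 (-2.53), Cdc20 (-1.91) and Ccnb2 (-0.96), their values under the block ran from -0.73 for Mki67 and Kif20a to -0.53 for Tpx2. With the number as a block across days instead, 3 members were called lower, beside 12.5% of tested genes. With the block by day and number and the GC offset together 17 were called, beside 9.7% of tested genes, and Mki67, Ccnb2 and Cenpa were not among them. The 2 comparisons of D2 with D0 use different libraries in each genotype. Same-numbered KO and WT libraries deviated together at D2, so the 2 changes may not be independent. The 36 pairs of changes are set side by side as a description.

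**Figure D5:**
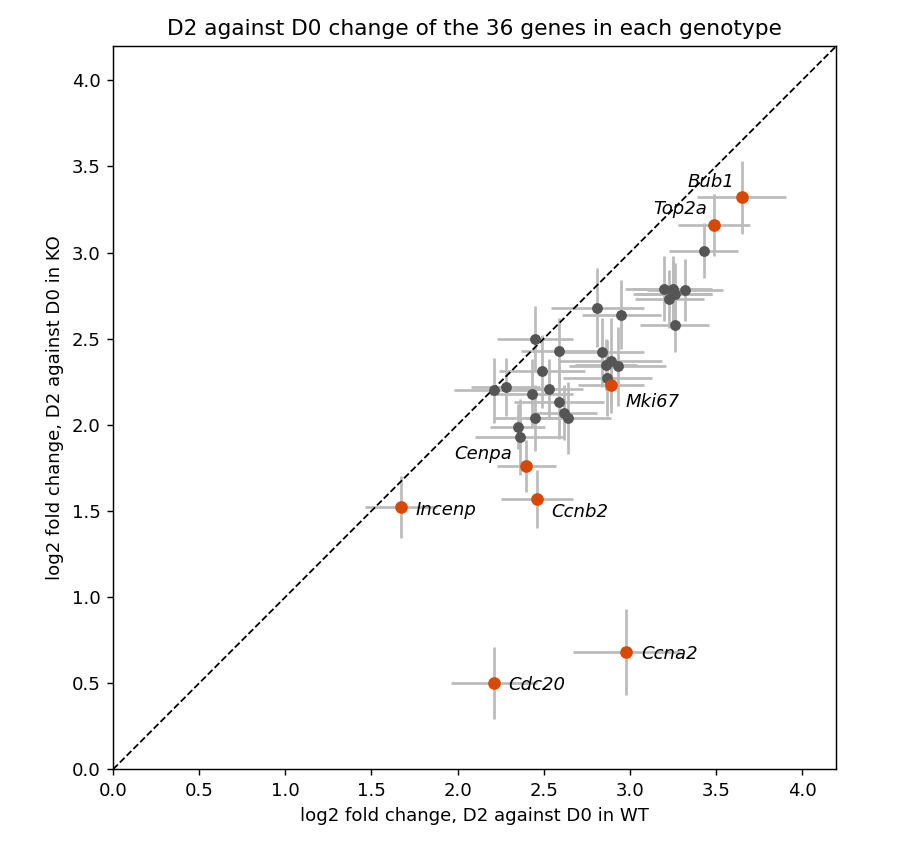
Log2 fold change of D2 against D0 in WT (x axis) and in KO (y axis) for the 36 members. Most points lie a little under the line of equal change, and Ccna2 (2.98 in WT, 0.68 in KO) and Cdc20 (2.21 and 0.50) lie far under it.

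Other mitotic genes, listed by role as condensin and cohesin, further kinetochore, further checkpoint, further spindle and cytokinesis, and mitotic entry with its transcription factors, gave 137 tested genes. From D0 to D2 in WT, 109 were higher and 3 lower, with a median of 1.41, and in KO 107 were higher and 10 lower, with a median of 1.13. Cks1b, which encodes a small subunit of cyclin-dependent kinases, rose by 3.46 (SE 0.15) in WT and 2.97 (SE 0.12) in KO, and Kntc1, a gene of the kinetochore complex that recruits checkpoint proteins, by 3.94 (SE 0.24) and 3.38 (SE 0.20). For comparison, 39 of 41 genes of DNA replication were higher at D2 in WT, with a median of 2.49, and 38 in KO, with a median of 2.21.

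Between KO and WT at D2, 24 of the 137 were lower (17.5%, beside 14.5% of all tested genes) and 1 higher. Those lower included regulators of the anaphase-promoting complex and the checkpoint: Ube2s, which encodes the enzyme that extends ubiquitin chains with it, stood at 392, 396 and 415 CPM in WT D2 and at 140, 158 and 154 CPM in KO D2, a log2 fold change of -1.41. Trip13, which encodes a remodeller of the checkpoint protein MAD2, was lower by -1.42, at 54.7, 48 and 51.1 CPM in WT D2 and 19.5, 19.9 and 17.9 CPM in KO D2. Cdc16, a subunit gene of the anaphase-promoting complex, was lower by -1.91 and the centrosome kinase gene Nek2 by -1.83. Sgo2a, which encodes a protector of centromeric cohesin, was lower by -1.29. In each of the genes named with its values the 3 KO D2 libraries lay under the 3 WT D2 libraries. Of the 24, 21 had a peak GC of 75% or more, as did 39 of the 137. With the GC offset 16 of the 24 were still called lower, in a fit where 8.5% of tested genes were. The 16 were counted among genes already called lower without the offset, so they do not give a share of the 137.

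Among the factors that drive transcription of mitotic genes, Foxm1, which encodes a forkhead activator of mitotic genes, stood at 35.5, 36.3 and 41.9 CPM in WT D2 and at 19.7, 19.2 and 22.6 CPM in KO D2, a log2 fold change of -0.89. Mybl2, which encodes the activator B-MYB, was at 77.6, 82.1 and 80.3 CPM in WT D2 and at 38.5, 35.3 and 46.1 CPM in KO D2, or -1.0. Neither pair of groups overlapped, and with the GC offset Foxm1 was still called (-0.79, adjusted p = 0.036) and Mybl2 was not (-0.40, adjusted p = 0.13). The call of Foxm1 did not hold without KO D2 replicate 2 (adjusted p = 0.051) or WT D2 replicate 3 (0.053). The kinase genes Wee1 and Pkmyt1, whose products hold CDK1 inactive, were lower by -1.53 and -1.82. Psrc1, which encodes a microtubule-associated protein, was the only 1 of the 137 called higher in KO at D2.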

How the data were processed

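The authors deposited 1 table of counts, whole numbers per Entrez ID in 11 libraries. The submitters' processing notes name build mm10 and the tools Salmon (0.13.1, also written 13.1), DESeq2 1.22.2, Trimmomatic 0.36 and bcl2fastq 2.20.0.422. Their roles are not given in the sources used here, and the counts may be rounded estimates. A RefSeq table (GRCm38.p6, which is mm10) gave symbols and positions for 24387 of 24421 IDs.

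The test was edgeR's quasi-likelihood test with robust dispersions (version 4.0.16, R 4.3.3), after TMM scaling and filterByExpr, which left 13711 genes. The 11 libraries entered 1 fit with 4 group means, so WT D0, with 2 libraries, shares the estimate of spread. Called means a Benjamini-Hochberg adjusted p under 0.05 over all tested genes. Standard errors (SE) came from the F statistic, and levels are TMM-scaled CPM. Intervals of counting error are small at these depths: 3 counts equal 0.107 to 0.154 CPM. The procedure was tested on simulated data.

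Named genes were the called members, the members with the smallest and highest p of each role for D2 against D0, those with the highest and lowest mean CPM, and up to 3 called genes per further list and direction. Fewer of the further genes are printed than the rule took. The members and lists were chosen with earlier results of these data known.

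As alternatives, each library was left out in turn, a replicate block was fitted, scaling was by RLE, the filter was dropped or set to a mean of at least 5 CPM, only the compared groups were used, and DESeq2 (1.42.0, Wald test) replaced edgeR. The GC offset, a lowess fit per library on the highest GC of any 100-base window (GENCODE M21 transcripts), was chosen after the data were examined, as were its combination with the block and a block across days. To check whether replicate numbers pair samples, deviations from group means were correlated over 9179 genes. Same-numbered KO and WT libraries gave 0.507, 0.480 and 0.347 at D2, and 0.0318 and 0.609 at D0, where 2 numbers are shared. KO D0 and WT D2 libraries of the same number, which differ in title day, gave 0.473, 0.490 and 0.371. The numbers were taken to pair samples at D2 from these correlations; a shared host is not stated. The block was day and number for comparisons of genotypes.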

Additional observations from a re-analysis of the deposited data

Results flagged for a closer look

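For 16 genes the change from D0 to D2 differed between the genotypes by the test of the interaction itself (edgeR adjusted p under 0.05), and this difference is what put them here. Values are the log2 change in KO minus that in WT. Among the members they were -2.30 for Ccna2 and -1.71 for Cdc20. Ccna2 was at 106 to 176 CPM in WT D2 and at 28 to 33.7 CPM in KO D2, and Cdc20 at 89 to 127 and 38.1 to 44.8 CPM, while both overlapped between genotypes at D0.

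Among further genes of the anaphase-promoting complex and the checkpoint the difference was -1.76 for Trip13, -1.72 for Cdc16 and -1.50 for Ube2s. Genes of centromeres, centrosomes and the spindle gave -2.56 for Fam83d, -2.01 for Nek2, -1.38 for Sgo2a, -1.36 for Haus4 and -0.76 for Spc24. Genes of mitotic entry and its transcription factors gave -1.64 for Pkmyt1, -1.44 for E2f4, -1.42 for Foxm1, -1.42 for Mybl2 and -1.25 for Wee1.

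Psrc1 was the exception in direction, at 2.25. It stood at 10.3, 7.68 and 10.6 CPM in KO D2 and at 0.797, 0.86 and 1.16 CPM in WT D2, with 1.91, 2.51 and 3.65 CPM in KO D0 and 1.03 and 1.49 CPM in WT D0. KO was above WT on both days without overlap.

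The flags depend on single libraries. Most of them, Ccna2 and Cdc20 included, depended on WT D0 replicate 2, with Trip13 an exception. The fit without it leaves 1 library in that group, its spread taken from the other groups. The members' median difference was -0.40 in that fit, beside -0.44 with all libraries. Cdc20 also lost its call without KO D2 replicate 1, KO D2 replicate 2 or WT D2 replicate 3.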

How the results depend on the processing

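Over 115 results of single members and their alternatives, 2111 values kept direction and call, 44 became called, 24 lost their call and 28 changed sign. Of those that changed sign, Cenpa in KO against WT at D2 was 0.04 with the GC offset and 0.06 with the replicate block and GC offset, and Mki67 0.35 and 0.39. Leaving out each library in turn, Mad2l1 ran from -0.30 to 0.02, Ccnb1 from -0.38 to 0.04, Top2a from -0.21 to 0.09, Plk1 from -0.40 to 0.02 and Cdk1 from -0.15 to 0.14, each highest without WT D2 replicate 1. Cdk1 was 0.09 with RLE, 0.08 with DESeq2, 0.02 with the replicate block, 0.01 with the block across days, 0.01 with a mean of at least 5 CPM and 0.03 in a fit of the D2 groups alone. At D0 Ndc80 ran from -0.14 to 0.08 and Spc25 from -0.40 to 0.02 when leaving out each library, and Ndc80 was 0.03 with the GC offset and 0.12 with block and offset. Mki67 in the difference of changes was 0.01 with the GC offset and 0.05 with block and offset, and Ckap2 -0.03 and -0.02, and -0.07 to 0.22 when leaving out each library. Outside the members, Racgap1 at D2 was 0.00 and 0.04 with these. Among 18 further genes named at D2, 6 lost their call somewhere, and among 14 in the difference of changes 13 did.

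Members lower in KO at D2 numbered 6 with the replicate block and GC offset (12.5% of all tested genes), and 2 to 4 when leaving out each library (10.9% to 15.9%). In the difference of changes the replicate block gave 12 (14.6%), the block with the GC offset 17 (9.7%), the block across days 3 (12.5%), a mean of at least 5 CPM 3 (9.76%), and leaving out each library 0 to 3 (0.0285% to 10.3%). The block changed no other count of members by more than 1.5 times. It is the alternative because pairing by number was inferred at D2 from correlations alone and cannot be shown at D0. There KO replicate 1 and WT replicate 2, of different numbers, gave 0.574. Fits on only the compared groups were not run for the difference of changes, which needs all 4. The causes of these changes were not tested.

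The mean summed level was 1041 CPM in KO D0, 4164 in KO D2 and 894 in WT D0 with library totals in place of TMM, and 823.9, 3905 and 695.4 without Top2a, the most abundant member. The lowest member count was 109; what depth limits was not tested.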
